A study of Mus musculus with 2 samples.

Results

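The chromosome 4 peaks were the 3787 peaks that lay on mouse chromosome 4 in a list of 51356 peaks, taken by chromosome name alone. The list came from ChIP-seq, which sequences DNA pulled down with an antibody, in C2C12, an established cell line of mouse myoblasts. The cells were 1 clone that carried an MMH transgene switched on by doxycycline and was kept under puromycin. MMH joins mouse Dux up to and including its homeodomains to the part of human DUX4 that follows its own homeodomains, both with altered codons. The study used 2 libraries, both from MMH cells treated with 2 ug/ml doxycycline for 18 hours. In one, a mix of the DUX4 antisera MO488 and MO489 pulled down the chimera. The other was the control. Its sample label gives the antibody as HA and the series' design text gives it as GFP; this conflict was not resolved here. Uninduced cells were not analysed here, and every peak therefore rests on 1 induced culture of a clone that expresses a transgene, with no replicate check.

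Dux and DUX4 are double homeodomain transcription factors that are normally active in the early embryo, where they switch on genes and repeats of the first cleavage stages. The DNA they bind is set by their homeodomains, and the end of the protein that follows them recruits coactivators. DUX4 is best known in muscle, where its misexpression causes facioscapulohumeral dystrophy. The core of the known Dux site reads GATTNAATC, where N is any base, and that of the DUX4 site reads AATCTAATC. Chromosome 4 of the mouse carries clusters of genes in many copies, among them the type I interferons, the major urinary proteins, the Skint genes and the Prame-like genes.

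Sequences of peaks that lie at gene starts are shown here, since they let the known site be seen against the position of the summit, the base of highest antisera depth. RefSeq promoters for GRCm38.p6, the assembly of mm10, run from 250 bases before a gene's start to 50 after it. Of 2053 such 300-base windows on chromosome 4, 36 held a peak summit; they belonged to 33 genes and 33 summits, with pileups (antisera fragments over the summit) of 15 to 428 and a median of 46. GATTNAATC, searched on both strands, was found in 6 of the 36 windows, or 16.7% (95% exact binomial interval 6.37% to 32.8%). It was found in 5 of the 2017 windows without a summit, or 0.248% (0.0805% to 0.578%), and in 0.268% of all 32851 windows of the genome. The 6 windows are printed over 101 bases each, read in the direction of the gene, with the match in capitals. *Gm13043* (chr4:143511161-143511261, + strand) had a pileup of 209 and *Pramel31* (chr4:144357782-144357882, + strand) one of 173. *Gm12724* (chr4:106236933-106237033, + strand) had 85 and *Pramel17* (chr4:101844091-101844191, - strand) 87. *Gm42294* (chr4:63771601-63771701, + strand) had 63 and *Echdc2*, a gene for a mitochondrial enzyme of the hydratase family (chr4:108165291-108165391, + strand), 25.
Gm13043: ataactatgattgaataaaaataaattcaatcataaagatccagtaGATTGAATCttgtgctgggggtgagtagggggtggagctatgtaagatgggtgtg
Pramel31: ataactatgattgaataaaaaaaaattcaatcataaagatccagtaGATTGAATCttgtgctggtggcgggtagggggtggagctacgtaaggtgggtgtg
Gm12724: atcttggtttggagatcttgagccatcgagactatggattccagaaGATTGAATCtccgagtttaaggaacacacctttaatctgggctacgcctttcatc
Pramel17: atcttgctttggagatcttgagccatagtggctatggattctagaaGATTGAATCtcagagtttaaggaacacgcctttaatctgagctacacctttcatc
Gm42294: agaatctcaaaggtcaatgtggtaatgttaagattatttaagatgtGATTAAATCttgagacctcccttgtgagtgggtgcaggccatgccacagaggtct
Echdc2: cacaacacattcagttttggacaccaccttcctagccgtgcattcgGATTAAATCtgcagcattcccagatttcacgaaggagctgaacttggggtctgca

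The summit lay 0 bp from the centre of the match at *Pramel17*, 3 bp at *Gm12724*, 7 bp at *Gm13043*, 11 bp at *Echdc2*, 28 bp at *Gm42294* and 61 bp at *Pramel31*. The 6 windows do not hold 6 unrelated sequences: the printed stretches of *Gm13043* and *Pramel31* were identical at 95 of 101 bases, and those of *Gm12724* and *Pramel17* at 92 of 101. Those of *Gm42294* and *Echdc2*, which share the match but no such similarity, were identical at 33 of 101. Over the whole genome GATTNAATC was found in 46 of 379 windows with a summit, or 12.1% (9.02% to 15.9%), and in 42 of 32472 without one. That 12.1% lies within the interval of the share on chromosome 4. AATCTAATC was found in 0 of the 36 windows with a summit on chromosome 4 (upper bound 9.74%) and in 1 of the 2017 others.

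A shorter string, TGATTNA, whose last 6 letters are the first 6 of GATTNAATC, was chosen after the data were seen and searched on both strands. It was found in 16 of the 36 windows with a summit (44.4%, interval 27.9% to 61.9%) and in 183 of the 2017 without (9.07%, 7.85% to 10.4%). The 16 windows are not independent: those of *Dnajb5* share a summit, and several belong to Prame-like genes. The pair below shows TGATTNA in the highest window, that of *Pramel24* (chr4:143719257-143719357, + strand). Its pileup was 428 and the match was centred 13 bp from the summit. The other is *Eya3*, a gene for a phosphatase that is also a transcriptional coactivator (chr4:132638864-132638964, + strand), with a pileup of 119 and the match, on the opposite strand, centred 8 bp from the summit.
Pramel24: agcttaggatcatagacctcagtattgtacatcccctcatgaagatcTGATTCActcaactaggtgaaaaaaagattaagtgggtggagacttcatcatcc
Eya3: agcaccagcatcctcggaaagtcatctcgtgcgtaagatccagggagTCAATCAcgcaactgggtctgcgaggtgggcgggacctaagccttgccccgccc

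The reverse case was seen as well. GATTNAATC stood in the windows of *I0C0044D17Rik*, *Gm12790*, *Gm13040*, *Gm13057* and *Pramel20* with no summit in them. The nearest summit was 33920 bp, 24847 bp, 24649 bp, 16122 bp and 355 bp away, and only the *Pramel20* window overlapped a peak. The windows of *Gm13040*, *Gm13057* and *Pramel20* were identical to each other over all 300 bases. How reads from such copies were placed was not given in the sources used here, and its part in the missing summits was not tested. Among the other windows with a summit, *Epha7*, an ephrin receptor, *Rraga*, a GTPase that signals amino acid supply to the mTOR kinase, *Vcp*, an ATPase that unfolds ubiquitin-tagged proteins, and *Nasp*, a histone chaperone, are genes outside the repeated clusters; their pileups were 47, 37, 31 and 18.

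Peaks were denser on chromosome 4 than on most of the genome. Between its outermost peaks, 153 Mb apart, chromosome 4 held 24.7 peaks per Mb (95% exact Poisson interval 23.9 to 25.5). This was the second of the 19 autosomes: chromosome 15 had 28.6 (27.6 to 29.7), chromosome 10 was next with 23.7 (22.9 to 24.6), and the other 17 lay between 17 and 23.7. The intervals of chromosomes 4 and 10 overlap, so their order is within counting error, while chromosome 15 lies above both. The median distance from one summit to the next was 21.0 kb, against 24.3 to 32.8 kb on the other 17 autosomes. Intervals cover counting error only.

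The peaks were also slightly higher and longer. Their median pileup was 43 fragments (41 to 44), with quartiles of 28.5 and 77 and a range of 14 to 1097, against a median of 41 over the other 17 autosomes, whose own medians ran from 40 to 42. The difference sat in the upper part of the distribution. The 90th percentile was 142 on chromosome 4 and 121 on the other 17. A pileup of 100 or more was reached by 668 peaks, or 17.6% (16.4% to 18.9%), against 14.6% of the whole list and 14.1% of the other 17. A pileup of 200 or more was reached by 189, or 4.99% (4.32% to 5.73%), against 3.47% of the whole list and 2.29% to 4.06% on each of the other 17. The median length was 443 bp (437 to 447; range 287 to 3042), against 421 to 436 bp. Fold enrichment, the ratio of pileup plus 1 to local background plus 1, did not set chromosome 4 apart. Its median was 7.98 on chromosome 4, tied with several others as the tenth of 19. It was 8.18 over the other 17, whose own medians ran from 7.81 to 8.38.

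The local background, the control-derived number of fragments against which the authors' caller judged each peak, separated chromosome 4 more clearly. Its lowest value, 4.01 fragments, was shared by most peaks, 78.0% of the whole list. This shared minimum, which does not give the control depth at each such peak, is called the floor. On chromosome 4, 1632 peaks lay above it by over 0.1%, or 43.1% (41.5% to 44.7%). The share was 22.0% in the whole list, 16.2% over the other 17 autosomes and 14.2% to 18.9% on each of them. Chromosome 15 stood higher still, at 81.3%. With a wider margin of 10% above the floor, chromosome 4 had 30.8% and the other 17 had 12.1% to 15.3%. Density and background both placed chromosome 4 second to chromosome 15. The part of either in the other was not tested.

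**Figure D1:**
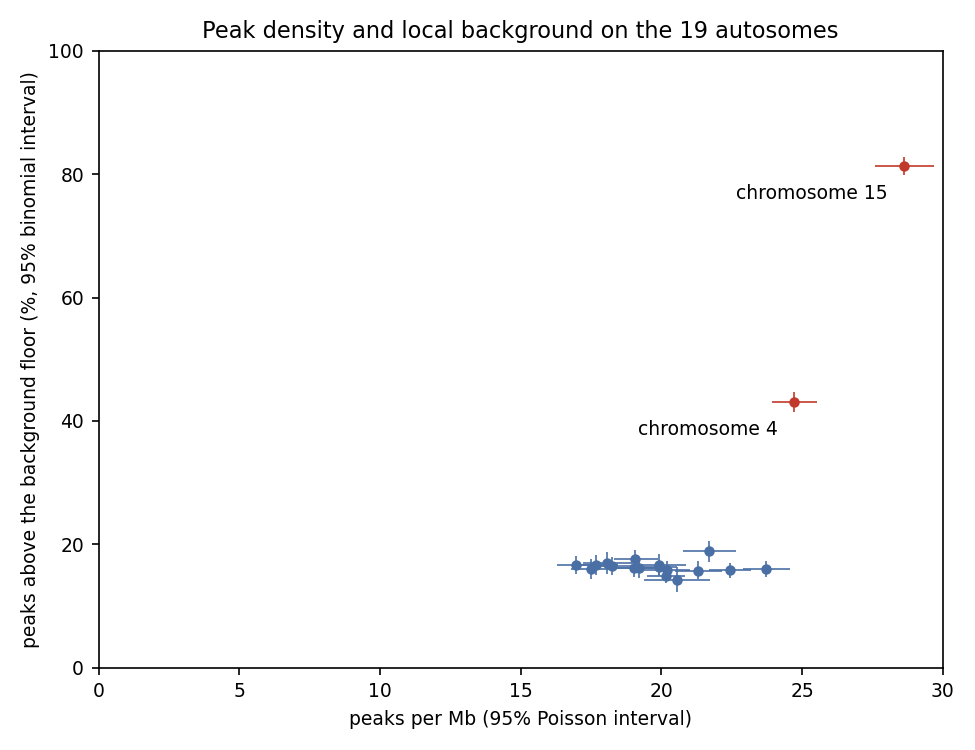
Peaks per Mb (x axis) against the share of peaks whose local background lies above the floor (y axis, percent) for the 19 autosomes, 1 point each, with 95% Poisson and binomial intervals. Chromosome 4 stands at 24.7 peaks per Mb and 43.1%, chromosome 15 at 28.6 and 81.3%, and the other 17 lie between 14.2% and 18.9%.

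Along chromosome 4 the background was raised nearly everywhere, in no sharp block. In 32 bins of 5 Mb, the share of peaks above the floor ran from 21.8% (135 to 140 Mb) to 60.5% (145 to 150 Mb), with a median of 42.2%. Over 443 bins of the other 17 autosomes it ran from 5.41% to 37.8%, with a median of 16.1% and a 95th percentile of 24.0%. All 32 bins of chromosome 4 were above that median, 31 were above that 95th percentile, and 23 were above every one of the 443 bins. The bin at 150 to 155 Mb, at 24.0%, was the other low one, so the lowest values both lay in the last 25 Mb, on either side of the highest.

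**Figure D2:**
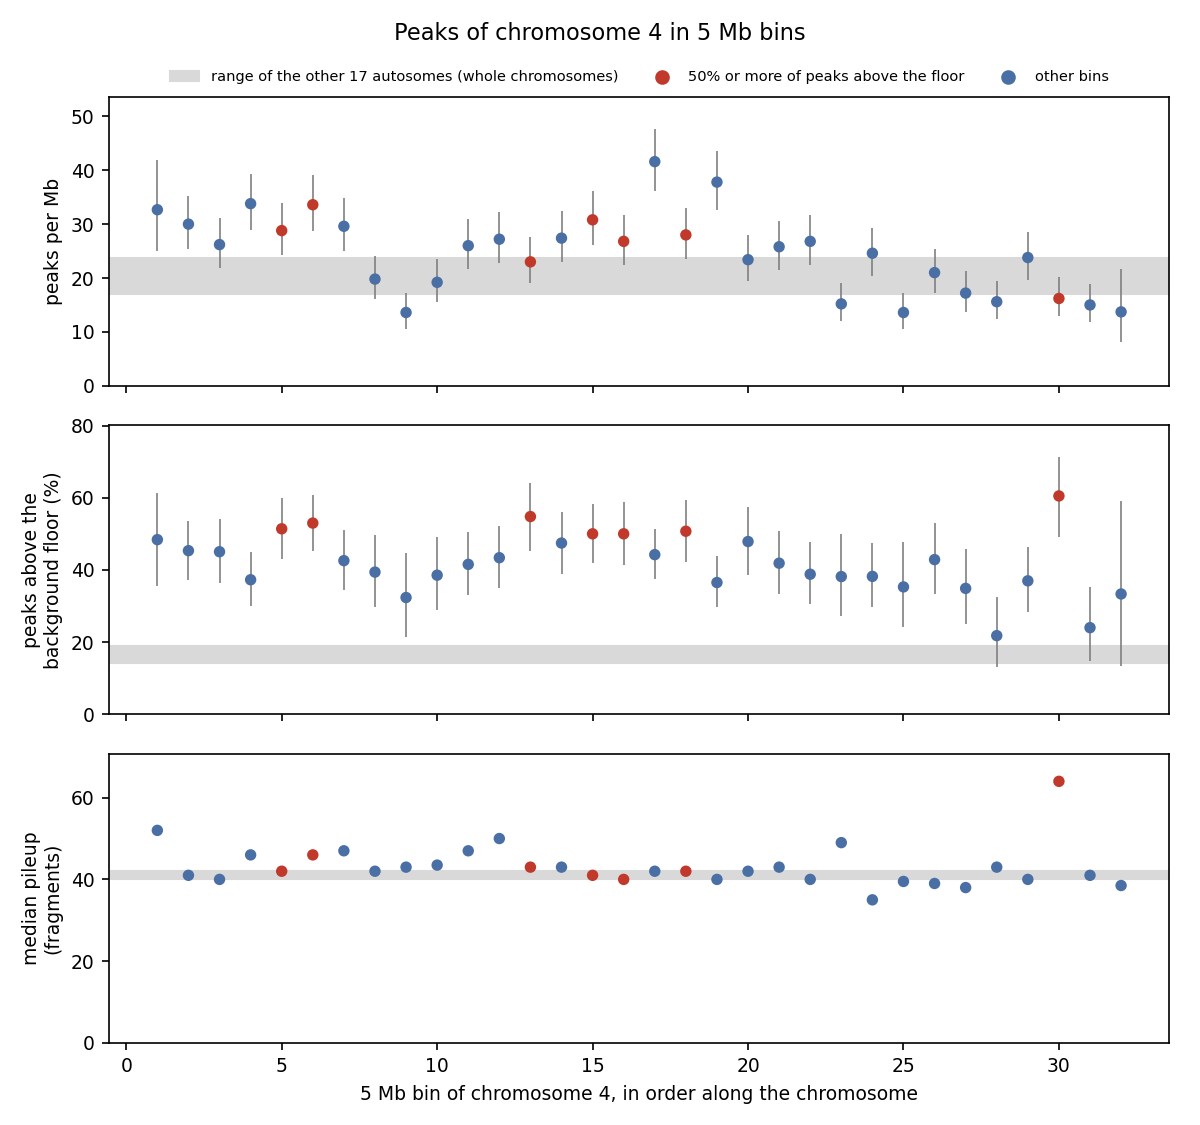
Peaks per Mb, the share of peaks above the background floor (percent) and the median pileup (fragments) in 32 bins of 5 Mb along chromosome 4, in order; vertical lines are 95% intervals, red points are bins with 50% or more of their peaks above the floor, and the grey band is the range over the other 17 autosomes as whole chromosomes. The share above the floor lies over the band in every bin, from 21.8% to 60.5%, while the density rises and falls across its band from 13.6 to 41.6 peaks per Mb.

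Peak density varied more than pileup or length between bins. The densest bin, 80 to 85 Mb, held 208 peaks, or 41.6 per Mb, and 90 to 95 Mb held 37.8 per Mb. The sparsest were 40 to 45 Mb and 120 to 125 Mb, both at 13.6 per Mb, and the median bin had 25.9. The densest single megabases were 80 to 81 Mb with 57 peaks, 143 to 144 Mb with 56, 30 to 31 Mb with 50, 90 to 91 Mb with 48 and 92 to 93 Mb with 47. Of these, 90 to 91 Mb also had a high median pileup, 71.5. Median pileup ran from 35 (115 to 120 Mb) to 64 (145 to 150 Mb) and length from 412 bp (130 to 135 Mb) to 475 bp (0 to 5 Mb).

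Bins with more peaks tended to hold fewer genes. With a boundary at 100 Mb, chosen after the bins were seen, the stretch before it had 2695 peaks, 27.8 per Mb, and 508 protein-coding genes, 5.24 per Mb. The stretch after it had 1092 peaks, 19.4 per Mb, and 792 coding genes, 14.1 per Mb. Across 31 bins the number of coding genes and the peaks per Mb had a Pearson r of -0.603 and a Spearman rho of -0.647. This is a description of neighbouring bins of 1 library, which are not independent. Before 100 Mb, 29.6% of summits lay inside a coding gene and 42.1% lay over 100 kb from one. After it the shares were 54.2% and 5.86%. The share above the floor differed less, at 45.2% and 38.0%, and median pileups were 43 and 41.

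Stretches of raised depth were taken as runs of 5 Mb bins in which 50% or more of at least 10 peaks lay above the floor. There were 7 such bins of 32 on chromosome 4, in 5 stretches of 35 Mb in all. Over all autosomes 5.65% of 496 bins met this, namely the 7, all 21 of chromosome 15 and 0 of the 443 others. The bins at 70 to 75 Mb and 75 to 80 Mb met it exactly, at 50%. The nearest below were 0 to 5 Mb at 48.4%, 95 to 100 Mb at 47.9% and 65 to 70 Mb at 47.4%. All of these intervals overlap. This rule uses the share of peaks, not the size of their background. At 20 to 30, 70 to 80 and 85 to 90 Mb the median background was 4.02 fragments, near the floor of 4.01. Mean backgrounds there were 4.47, 4.50 and 4.46, against 4.47 over all chromosome 4 peaks. With the 10% margin their shares were 32.4%, 36.1% and 36.4%, against 30.8% on the whole chromosome. The other stretches, 60 to 65 Mb and 145 to 150 Mb, had means of 4.84 and 7.05.

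The raised bins held 26.7 peaks per Mb and the other bins 24.1, a ratio of 1.11 (1.03 to 1.19). The median pileups were 43.5 and 42, a ratio of 1.04. Dividing the opposite limits of these medians gave a wide range of 0.932 to 1.12, which includes 1. Over 31 bins the share above the floor and the median pileup had an r of 0.400 and a rho of 0.268. Since the background enters the call of each peak, density and background are not independent measures.

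The first stretch, 20 to 30 Mb, had 312 peaks, 31.2 per Mb, 52.2% of them above the floor (46.5% to 57.9%) and a median pileup of 44.5. Its highest peaks were in *Fut9*, a fucosyltransferase that makes the Lewis x glycan, with a pileup of 600, and in *Gpr63*, an orphan G protein-coupled receptor, with 420. Another with 380 lay 23.3 kb from *Ndufaf4*, an assembly factor of respiratory complex I. The remaining named peaks, with 391 in the noncoding gene *Gm52725* and 369 near the pseudogene *Gm11919*, both had *Epha7* as the nearest coding gene, 662 kb and 375 kb away.

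The second stretch, 60 to 65 Mb, had 115 peaks, 54.8% above the floor (45.2% to 64.1%) and a median pileup of 43. Its highest peak, with 287, was in the noncoding *LOC108168693*, 21.4 kb from the zinc finger gene *Zfp37*. The next had 198 and lay 2.00 kb from *Wdr31*. Others had 167 near *Mup-ps4*, 155 near *Gm21286* and 149 inside *Mup5*; these stand among the major urinary protein genes, which code for small lipocalins that carry pheromones in urine.

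The third stretch, 70 to 80 Mb, had 288 peaks, 50% of them above the floor (44.1% to 55.9%) and a median pileup of 41. Its highest peak, with 458, lay 186 kb from *Aldoart1*, an aldolase retrogene. *Megf9*, a membrane protein with EGF-like repeats, had a peak of 375 at 5.0 kb from one end and another of 303 inside it. A peak of 337 lay 119 kb from *Cdk5rap2*, a centrosome protein, and one of 300 lay 363 kb from *Kdm4c*, a histone demethylase.

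The fourth stretch, 85 to 90 Mb, had 140 peaks, 50.7% above the floor (42.1% to 59.3%) and a median pileup of 42. Its highest peak, with 360, lay 74.1 kb from *Mllt3*, a reader of histone acylation. *Adamtsl1*, a secreted matrix protein, held one of 336, and one of 261 lay 14.4 kb from *Slc24a2*, a sodium and calcium exchanger. A peak of 224 had *Zfp352* as its nearest coding gene, at 229 kb, and one of 209 lay 4.32 kb from *Gm13271*.

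The fifth stretch, 145 to 150 Mb, stood apart from the other 4. It had 81 peaks, 60.5% above the floor (49.0% to 71.2%), and only 16.2 peaks per Mb, with a median pileup of 64. Its mean background was 7.05 fragments, against 4.46 to 4.84 in the other 4, and its highest was 25.6. Of the 23 peaks of chromosome 4 with a background of 10 or more, 17 lay here; such peaks were 0.228% of the whole list. Its highest peak, with 480, lay in *Vmn2r-ps17*, 6.66 kb from *Zfp600*, on a background of 12.9, so its fold of 34.6 was the lowest of the 25 highest peaks described below. *Zfp978* held peaks of 356 and 281, one of 383 lay 21.7 kb from *Zfp990*, and one of 218 lay in *Gm32897*, 59.4 kb from *Casz1*, a zinc finger transcription factor.

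At 1 Mb, high mean backgrounds were seen in a few places on chromosome 4. Of 151 bins with 5 peaks or more, 5 had a mean background over 6. They formed 60 to 62 Mb and 145 to 148 Mb, which together held 20 of the 23 peaks with a background of 10 or more. As these regions were chosen by their mean background, this count and their values above the floor follow in part from the choice. At 60 to 62 Mb, 39 of the 40 genes had a Mup symbol; 20 of 24 peaks lay above the floor, and the median background was 6.49 and the median fold 7.67. At 145 to 148 Mb, 17 of 92 genes had a symbol that begins with Zfp or Rex2. There, 41 of 51 peaks lay above the floor, and the median background was 7.29, the median pileup 72 and the median fold 8.58. The edges were steep on the distal side: the share above the floor was 80.8% at 147 to 148 Mb and 23.1% at 148 to 149 Mb. Both regions hold families of genes, and the part of repeated sequence in their background was not tested.

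**Figure D3:**
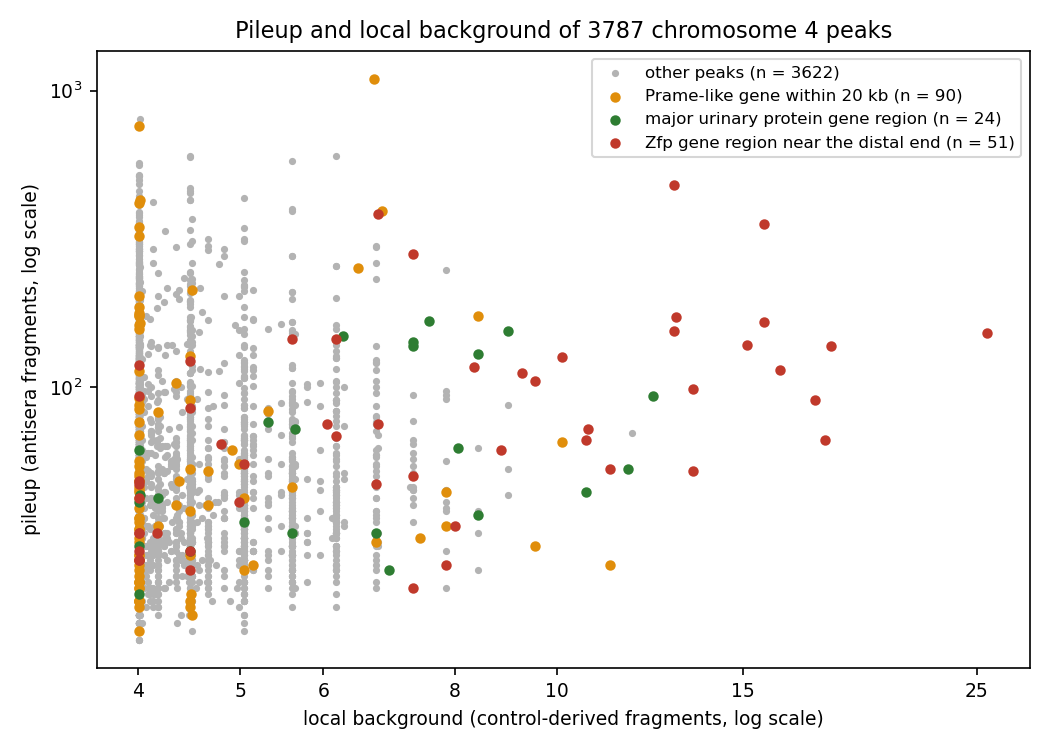
Pileup (y axis, antisera fragments, log scale) against local background (x axis, control-derived fragments, log scale) for the 3787 peaks of chromosome 4, 1 point each. Peaks of the major urinary protein region (24, green) and of the Zfp region near the distal end (51, red) reach backgrounds of 12.3 and 25.6, while the 90 peaks near Prame-like genes (orange) include the highest pileup, 1097.

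The highest peaks were next ranked without the 90 peaks, 2.38%, whose summit lay within 20 kb of a Prame-like gene. Near those genes, which code for leucine-rich repeat proteins of germ cells and early embryos, stood the highest peak of the chromosome, at *Pramel19*, with a pileup of 1097 and a length of 3042 bp. Next came *Pramel18* with 761; 7 of the 73 chromosome 4 peaks of 300 or more were of this kind. The 25 highest of the other peaks had pileups of 410 to 802, folds of 34.6 to 160 and lengths of 613 to 1555 bp, with a median of 818 bp. The next below were 398 in *Astn2* and 391 in *Gm52725*.

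The highest, with 802 fragments (747 to 859) at 160-fold, lay at chr4:80664108-80665662. It was 34.2 kb from the noncoding *Gm32658* and 170 kb from *Tyrp1*, an enzyme of melanin synthesis. Its interval lies above that of every other peak of the 25. The next 6 had overlapping intervals and cannot be ordered. They were 601 at 404 kb from *Nfib*, 600 (553 to 650) in *Fut9*, 596 at 429 kb from *Izumo3*, a sperm protein, 578 at 142 kb from *Grin3a*, a glutamate receptor subunit, 568 (522 to 617) in *Macf1* and 560 (515 to 608) in *Nfib*.

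Of the 25, 8 lay inside a coding gene, or 32%. The share was 36.7% of all chromosome 4 peaks and 39.7% over the autosomes and X, so the highest peaks were not more often inside coding genes. *Nfib* is a transcription factor of the nuclear factor I family, and its peak (chr4:82419836-82420531) had a fold of 112. *Macf1* links microtubules to actin, and its peak (chr4:123401944-123402725) had a fold of 113. *Fut9* (chr4:25707315-25708018) had a fold of 83.9 on a background of 6.17. The others were *Bnc2*, a zinc finger protein (515), *Snx30*, a sorting nexin (486), *Acot7*, an acyl-CoA thioesterase (451), *Gpr63* (420) and *Bach2*, a transcriptional repressor of lymphocytes (415).

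The other 17 lay between coding genes, and 8 of them were over 100 kb from the nearest. That is 32% of the 25, against 31.7% of all chromosome 4 peaks and 27.8% of the whole list, and so a share near that of all peaks on the chromosome. Besides those named, a peak of 519 lay 394 kb from *Tox*, a nuclear factor of T cells, and one of 459 lay 509 kb from *Izumo3*. One of 458 lay 186 kb from *Aldoart1*, and one of 410 lay 151 kb from *Bpnt2*, a Golgi phosphatase.

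Nearer to genes, a peak of 515 lay 59.5 kb from *Syf2*, a splicing factor, and one of 501 lay 51.2 kb from *Map3k7*, the kinase also called TAK1. One of 468 lay 27.1 kb from *Wwp1*, a ubiquitin ligase, and one of 442 in the noncoding *2210414B05Rik*, 20.1 kb from *Lyn*, a Src family kinase. One of 435 lay 92.8 kb from *Olfr267*, and one of 417 lay 28.9 kb from *Cnbd1*. One of 427 was in *Junos*, 49.2 kb from *Jun*, the AP-1 transcription factor, and another of 427 was 81.6 kb from *Trabd2b*, a protease that acts on Wnt proteins. Of the 25, 20 lay in the first 100 Mb, which held 2695 of all 3787 peaks, and 5 lay after it. The background was at the floor for 12 of the 25, against 2155 of all 3787 peaks of the chromosome.

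**Figure D4:**
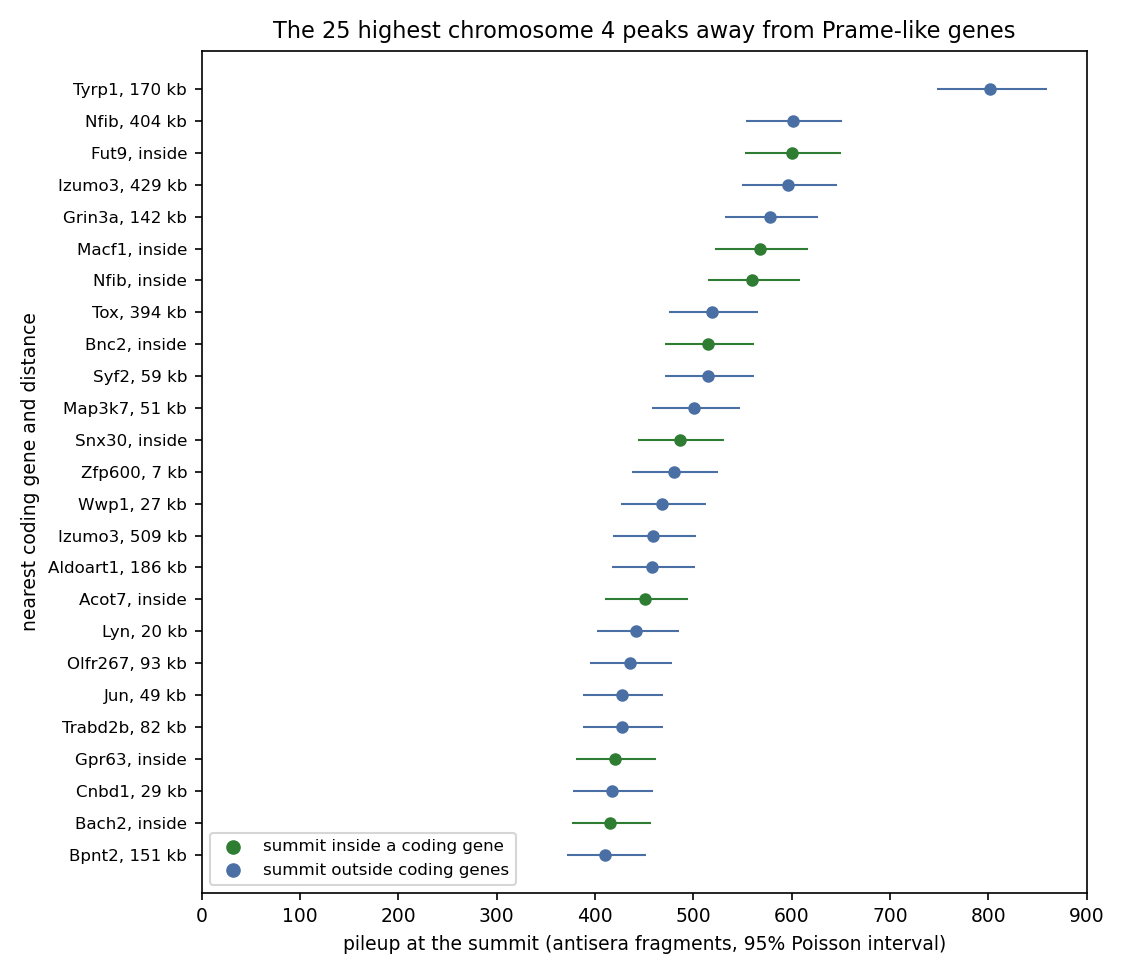
Pileup at the summit (x axis, antisera fragments, with 95% Poisson intervals) of the 25 highest chromosome 4 peaks away from Prame-like genes, each labelled with its nearest coding gene and the distance. The peak 170 kb from Tyrp1, at 802, stands clear of the rest, which fall from 601 to 410 with overlapping neighbours; 8 summits (green) lie inside coding genes.

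Away from Prame-like genes, the 5 highest folds were all among the 7 highest pileups: 160 near *Gm32658*, 113 in *Macf1*, 112 in *Nfib*, 110 near *Gm46886*, the noncoding gene beside the peak 404 kb from *Nfib*, and 109 near *Gm12637*, beside the peak 429 kb from *Izumo3*. The longest peaks were others. Those away from Prame-like genes measured 2211 bp in *Gm32658*, 2138 bp near *Gm11256* and 2037 bp near *Gm12727*, with pileups of 112, 128 and 258. Over all 3787 peaks the Spearman rho of pileup and length was 0.735, as a description. Of the summits, 45.6% lay inside a gene of any kind, 36.7% inside a coding gene and 13.0% within 5 kb of either end of a coding gene.

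Of 1301 protein-coding genes on chromosome 4, 433 had a summit within 5 kb of either end, or 33.3% (30.7% to 35.9%). The share was 28.0% over the autosomes and X, 22.2% to 34.5% on each of the other 17 autosomes and 32% on chromosome 15. A gene list with a share near these is not set apart by its count.

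Among 13 regulators of the cell cycle and growth, 7 had a summit within 5 kb. *Ccne2*, a cyclin E that drives entry into S phase, had by far the highest, with a pileup of 197 (170 to 227) and a fold of 39.5. The *Ccne2* summit lay 520 bp outside the gene, on the side of lower coordinates. *Jak1*, a cytokine receptor kinase, had 66, *Mycl*, a Myc family member, 39, *Ccnl2*, a cyclin linked to splicing, 38, and *Mtor*, the growth kinase, 35. *Cdkn2c*, an inhibitor of cyclin D kinases, and *E2f2*, an E2F transcription factor, had 26 each. There was none at *Cdkn2a*, *Cdkn2b*, *Id3*, *Jun*, *Lin28a* or *Trp73*. Whether the DNA of genes without a summit was present in this clone was not tested.

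Among 17 genes of skeletal muscle, 8 had a summit within 5 kb, of which 7 are described. *Pomgnt1*, which acts in the glycosylation of dystroglycan, had 143. *Cap1*, an actin regulator, had 103. *Musk*, the receptor kinase of the neuromuscular synapse, had 50, and *Tmem38b*, a channel of the reticulum, had 47. *Pax7*, the transcription factor of muscle stem cells, had 44, *Cpt2*, an enzyme of fatty acid oxidation, 35, and *Hspg2*, perlecan, 30. There was none at *Cavin4*, *Fabp3*, *Hspb7*, *Mfn2*, *Myom3*, *Prdm16*, *Tpm2*, *Trim63* or *Zmpste24*. With 13 and 17 members, the shares of both lists have wide intervals (25.1% to 80.8% and 23.0% to 72.2%) that include the share of all coding genes.

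The clusters of repeated genes had few high summits, but their shares of genes with a summit were mostly within counting error of that of all coding genes. Of 18 genes with a type I interferon symbol, which code for antiviral cytokines, 6 had a summit within 5 kb. Genes listed under other symbols were not counted. *Ifna13* had 162 at 32.5-fold, *Ifnk* 47, *Ifna16* and *Ifna2* shared one of 35, *Ifne* had 26 and *Ifnb1* 15. The *Ifna13* summit also lay within 20 kb of *Pramel32*, a Prame-like gene whose promoter window held a summit of 212. Of 44 major urinary protein genes and pseudogenes, 7 had one. *Mup5* had 142 on a background of 7.29, *Mup4* 54, *Mup3* 52, *Mup-ps4* 44 on a background of 10.7, *Mup-ps2* 32, *Mup7* 28 and *Mup-ps18* 20.

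Of 11 Skint genes, whose member *Skint1* acts in the selection of skin gamma delta T cells, *Skint10* had 55 and *Skint2* 50. The *Skint2* summit lay 28 bp before the start of its gene span, inside its promoter window. *Skint1* had none. Of 13 Cyp4a and Cyp4b genes, fatty acid hydroxylases, *Cyp4a32* had 41 and *Cyp4a12b* and *Cyp4a28-ps* had 23 each. Of 10 Cyp2j genes, *Cyp2j13* had 42, and of 30 olfactory receptor genes *Olfr1342* had 37 and *Olfr1330* 25. The share with a summit was 33.3% (13.3% to 59.0%) for the type I interferons, equal to that of all coding genes on the chromosome. It was 23.1% (5.04% to 53.8%) for the Cyp4a and Cyp4b genes, 18.2% (2.28% to 51.8%) for the Skint genes and 10% (0.253% to 44.5%) for the Cyp2j genes, and all of these intervals include 33.3%. It was 15.9% (6.64% to 30.1%) for the major urinary proteins and 6.67% (0.818% to 22.1%) for the olfactory receptors, whose intervals lie below 33.3%; that of the major urinary proteins includes 28.0%. Neighbouring genes share peaks and are not independent, and some of these lists count pseudogenes.

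*Zfp352*, a zinc finger gene of the early embryo, stood in the opposite setting. The 407 kb around it, 200 kb on either side, held 29 peaks, 71.3 per Mb, and only 3 genes, *Zfp352*, *Gm12633* and *Gm12634*. Their pileups ran from 19 to 337 with a median of 73, against 43 over the chromosome; 7 reached 100, and 10 of the 29 lay above the floor. The summit nearest to *Zfp352* was 321 bp outside the gene, on the side of lower coordinates, with a pileup of 174 and a fold of 34.9.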

How the data were processed

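Libraries were grouped by their antibody label: 1 with DUX4 antisera and 1 control. Per the submitters' processing notes, reads were handled with BWA and MACS2 on mm10; mapping settings and filters were not given in those notes. The authors called peaks, per the file headers, with MACS 2.1.0.20151222 on paired-end fragments, antisera against control, with a q-value threshold of 0.01 and 1 fragment kept per position. This left 26253175 of 32659686 antisera and 23412256 of 40115471 control fragments. The deposited pileup is, per the file headers, a signal that counts fragments over the summit; the deposited p-value and q-value are given as −log10; and the deposited fold enrichment is a ratio with a pseudocount of 1.

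The local background was recovered as (pileup + 1) / fold − 1 and checked by recomputing the Poisson p-value, which matched within 1% for all 3657 peaks of chromosome 4 with a finite value. Density used the span between the outermost peaks. Bins were counted from position 1. Genes and promoters came from RefSeq tables for GRCm38.p6 (2854 genes, 1301 coding; 69 rows on scaffolds were dropped), matched by symbol. Intervals are exact Poisson or binomial at 95%, and duplicates and shared fragments make them cover counting error only. Those of medians use order statistics. The range of a ratio of medians divides their opposite limits and is wider than a 95% interval. No test of a difference was made, with 1 library per antibody.

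Named peaks were the 25 highest by pileup without a Prame-like gene within 20 kb, and the 5 highest per raised stretch. They also included the 5 highest folds, the 3 longest and up to 6 members of each of 8 gene lists. The seventh and eighth members given, the string TGATTNA and the 100 Mb boundary were added after their values were seen. The values of 1 listed gene are not reported here. Members and lists were chosen with earlier results of these data known. Alternatives were stricter q-values, other bins, thresholds and distances, and leaving out peaks near Prame-like genes. Recovery of a raised stretch was tested on simulated data, with larger contrasts in share, density and pileup than those found here. Recovery at contrasts as small as those found here was not tested. Python 3.11.15, numpy 2.4.6, pandas 2.3.3, scipy 1.17.1 and matplotlib 3.10.9 were used.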

Additional observations from a re-analysis of the deposited data

How the results depend on the processing

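With a q-value of 1e-10, peak density fell to 20.4 per Mb, and median pileup and length rose to 50 and 466 bp; at 1e-05 they moved within their intervals, and at both chromosome 4 ranked second for density, pileup, length and share above the floor. With a margin of 10% over the floor the share was 30.8%. The number of coding genes with a summit was 124 within 1 kb and 822 within 20 kb. The length of raised stretches depended on the threshold: 138 Mb at 33% and 0 at 67%; bins of 2 and 10 Mb gave 38 and 30 Mb. The density ratio of raised to other bins stayed within 1.10 to 1.19 over the q-values and bin sizes, and was 1.75 at 33%. The pileup ratio ranged from 0.977 with 2 Mb bins to 1.05, and each wide range from the opposite limits of the medians included 1. Leaving out 145 to 150 Mb, chosen after seeing the data, gave a share above the floor of 42.7% and ratios of 1.18 and 1.02. Without peaks near Prame-like genes, density was 24.1 per Mb and median pileup 43. No paired analysis was possible because each antibody had 1 library. With that, neither the peaks nor the control background has an estimate of variation between cultures.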

Other observations

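The longest stretches of chromosome 4 without a summit were taken from the 3786 distances between neighbouring summits, as values with no test. The longest, 1159 kb from 121657888 to 122817220, held 9 genes, 2 of them coding. The next, 907 kb from 41834276 to 42740994, held 41 genes, 14 of them coding, among them *Ccl21d*, a lymph node chemokine, and *Fam205a4*. Of the 4 that followed, those of 734 kb, 688 kb and 613 kb lay among Skint genes, and that of 679 kb among *Mup13*, *Mup14*, *Mup15* and *Mup16*. These 4 thus lay in clusters of similar genes. The sixteenth, 338 kb from 89170756 to 89508282 and chosen after its genes were seen, held *Mtap*, *Cdkn2a* and *Cdkn2b* as its only coding genes. *Cdkn2a* and *Cdkn2b* code for inhibitors of cell cycle kinases. Whether the DNA of the stretches without a summit was present in this clone was not tested.

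Peaks also came in close pairs. On chromosome 4, 180 neighbouring summits lay within 1500 bp of each other, or 4.75%, against 3.61% to 5.06% on the other 17 autosomes, which includes the value of chromosome 4.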
